A study of Homo sapiens with 6 samples.

Results

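The HOX genes encode homeodomain transcription factors and lie in 4 clusters, HOXA on chromosome 7, HOXB on chromosome 17, HOXC on chromosome 12 and HOXD on chromosome 2. The members were every row of the gene count table whose NCBI Gene number maps to a protein-coding symbol made of HOXA, HOXB, HOXC or HOXD and a number. This gave 39 genes of 29806 gene numbers counted, with 11 in HOXA, 10 in HOXB, 9 in HOXC and 9 in HOXD.

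The number in a HOX symbol is its paralog group, which is its place along the cluster and is shared by the related genes of the other clusters. In the embryo, low-numbered (anterior) genes are switched on first and nearer the head, and high-numbered (posterior) genes later and nearer the tail, so that adult cells keep a HOX profile that reflects where in the body they arose. The prostate arises from the caudal urogenital sinus and its epithelium is known for *HOXB13*, a posterior gene whose protein binds chromatin together with the androgen receptor. HOX proteins bind DNA with TALE homeodomain partners, the Polycomb and Trithorax groups of chromatin proteins keep the clusters silent or active, and retinoic acid is an inducer of the anterior genes.

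PolyA RNA was sequenced from LNCaP, an androgen-responsive human prostate cancer cell line, to ask how gene expression changed when PACT, the double-stranded RNA-binding protein encoded by *PRKRA*, was removed. One group was 3 libraries of wild-type LNCaP parental cells, and the other was 3 libraries of PACT KO cells, a CRISPR/Cas9 knockout line of LNCaP grown from a single clone. Both were grown in RPMI-1640 with 10% fetal bovine serum, and RNA was taken 48 h after plating 1000000 cells in each 10 cm dish, at about 80% confluency. The 3 libraries of a group were separate dishes of the same line, so p-values measure the spread between dishes, and the knockout and the choice of clone cannot be told apart.

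Libraries held 19930060 to 24940838 counts on genes. *PRKRA* had 882, 809 and 866 counts in LNCaP parental libraries and 291, 331 and 243 in PACT KO libraries, a log2 fold change of -1.57 (SE 0.07), and the groups did not overlap (exact permutation test, 2-sided, p = 0.10, the smallest that 3 against 3 allows). Of 11 luminal prostate markers all 11 averaged at least 1 CPM (counts per 1000000 counts) in the libraries. They summed to 4705 to 4745 CPM in LNCaP parental and 4936 to 5029 CPM in PACT KO, but did not move as one. At an edgeR FDR under 0.01, 5 were higher and 3 lower in PACT KO (72.7%, beside 34.2% of all genes tested). Among the lower were *KLK3*, at 63.7 and 11.2 CPM (log2 fold change -2.50, SE 0.06), and *KLK2* (-0.84, SE 0.07). The basal markers *TP63*, *KRT5*, *KRT14* and *KRT15* summed to at most 0.185 CPM in any library. Fibroblast markers summed to 32.9 to 37.5 CPM in LNCaP parental and 44.6 to 50.0 CPM in PACT KO, of which *COL1A1* alone was higher (log2 fold change 0.52, SE 0.05) and *COL3A1* stood at 6.35 and 5.96 CPM, with *COL1A2* at 0 counts and *DCN* and *LUM* at 6 or fewer. Neuroendocrine markers summed to 1.66 to 2.07 and 1.54 to 3.02 CPM, and leukocyte markers to 2.03 to 2.26 and 1.46 to 1.73 CPM. Among endothelial markers *VWF* made up 24.3 to 27.0 CPM in LNCaP parental and 15.6 to 17.7 CPM in PACT KO, while *PECAM1* and *CDH5* had 0 counts in every library. What part these shifts have in the HOX values was not tested.

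The homeobox is the 180 bases of coding DNA for the DNA-binding homeodomain, and it is the stretch that members share most. It is shown for 3 of the 4 members called DEGs between the groups (FDR under 0.01 and at least 1.5-fold) and for *HOXB13*, the most abundant, in coding direction and with hg38 positions, from GENCODE release 29 transcripts. Capitals mark the in-frame match to TGGTT followed by CA, AA and CG, each after 1 base of any kind, which starts at codon 48 of the homeobox and encodes the core of the helix that contacts DNA.
*HOXA10*, chr7:27171947-27172126 (- strand): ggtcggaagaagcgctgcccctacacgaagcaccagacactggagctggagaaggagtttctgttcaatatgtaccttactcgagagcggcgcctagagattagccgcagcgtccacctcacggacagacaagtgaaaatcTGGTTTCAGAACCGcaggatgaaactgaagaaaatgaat
*HOXC10*, chr12:53989219-53989398 (+ strand): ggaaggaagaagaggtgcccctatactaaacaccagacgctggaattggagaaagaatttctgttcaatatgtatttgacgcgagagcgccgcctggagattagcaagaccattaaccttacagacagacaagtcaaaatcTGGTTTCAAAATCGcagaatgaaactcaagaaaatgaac
*HOXC12*, chr12:53956357-53956536 (+ strand): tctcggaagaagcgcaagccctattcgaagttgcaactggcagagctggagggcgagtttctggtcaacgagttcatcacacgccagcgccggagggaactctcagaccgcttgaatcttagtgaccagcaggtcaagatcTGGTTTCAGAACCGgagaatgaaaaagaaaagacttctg
*HOXB13*, chr17:48726820-48726999 (- strand): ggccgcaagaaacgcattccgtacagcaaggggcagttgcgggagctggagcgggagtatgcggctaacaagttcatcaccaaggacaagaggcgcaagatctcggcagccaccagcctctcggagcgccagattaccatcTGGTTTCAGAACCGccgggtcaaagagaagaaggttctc
An in-frame match was found once in each of 34 of the 39 members, and not in *HOXA11*, *HOXA13*, *HOXC11*, *HOXD8* or *HOXD12*. The pattern is one of DNA bases, so a member without a match can encode the same amino acids with other codons. The proteins were not compared. *HOXA10* and *HOXC10*, which belong to the same paralog group, were identical at 147 of 180 bases (81.7%). Pairs were formed among the 17 members that were tested between the groups and had a match, which leaves out *HOXA11*. Over the 8 pairs from the same paralog group, identity ranged from 74.4% to 90.6%. Over the 128 pairs from different paralog groups it ranged from 49.4% to 77.8%. The longest run of identical bases shared by the full transcripts of *HOXA10* and *HOXC10* was 17 bases, so a read longer than that could not match both without a mismatch in the transcripts used.

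LNCaP cells expressed a minority of the HOX genes, most of them in HOXC. A member was called expressed at a group mean of at least 1 CPM, and not detected at 3 counts or fewer in every library of the group, which is 0.121 to 0.148 CPM at these depths. In LNCaP parental cells 14 members were expressed, 8 were low and 17 were not detected. HOXC contributed 8 of the 14, HOXA 3, HOXB 3 and HOXD none.

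*HOXB13* dominated the profile. It had 12580, 11710 and 13199 counts in the LNCaP parental libraries and ranked 216 of 29806 genes by mean CPM. This was 82.3% to 82.6% of all counts on HOX genes in a LNCaP parental library, and 78.5% to 78.8% of the summed HOX level when each gene was divided by its exon length. On the scale of CPM per kb of exon, used here to compare genes, *HOXB13* stood at 157 ± 3.06 (SD, n = 3). It was 12.0 to 12.4 times as high as *HOXC6*, the next member. The annotation used for counting is not given, and some members share exon bases with other genes, such as 43.4% for *HOXC5*. The order of close members on this scale is therefore approximate.

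HOXC was the cluster with the widest activity, since every member except *HOXC11* was expressed. *HOXC6* was at 12.9 ± 0.416 CPM per kb and *HOXC13*, a gene of hair follicle and nail formation, at 6.96 ± 0.145 (SD, n = 3). *HOXC9* (4.92 ± 0.375) and *HOXC4* (4.27 ± 0.404) followed with ranges that overlapped each other. *HOXC5* at 2.58 ± 0.315, *HOXB9* at 2.08 ± 0.309 and *HOXC10* at 2.06 ± 0.183 formed the next set of overlapping neighbours on this scale.

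The remaining expressed members of LNCaP parental cells were within a narrow band. *HOXA10*, a gene of uterine and limb patterning, was at 1.26 ± 0.200 CPM per kb, above *HOXB6* at 0.956 ± 0.0102 and *HOXA5*, a gene of lung development, at 0.953 ± 0.224. *HOXC12* and *HOXC8* came lower at 0.611 and 0.610 CPM per kb, and their ranges overlapped.

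**Figure D1:**
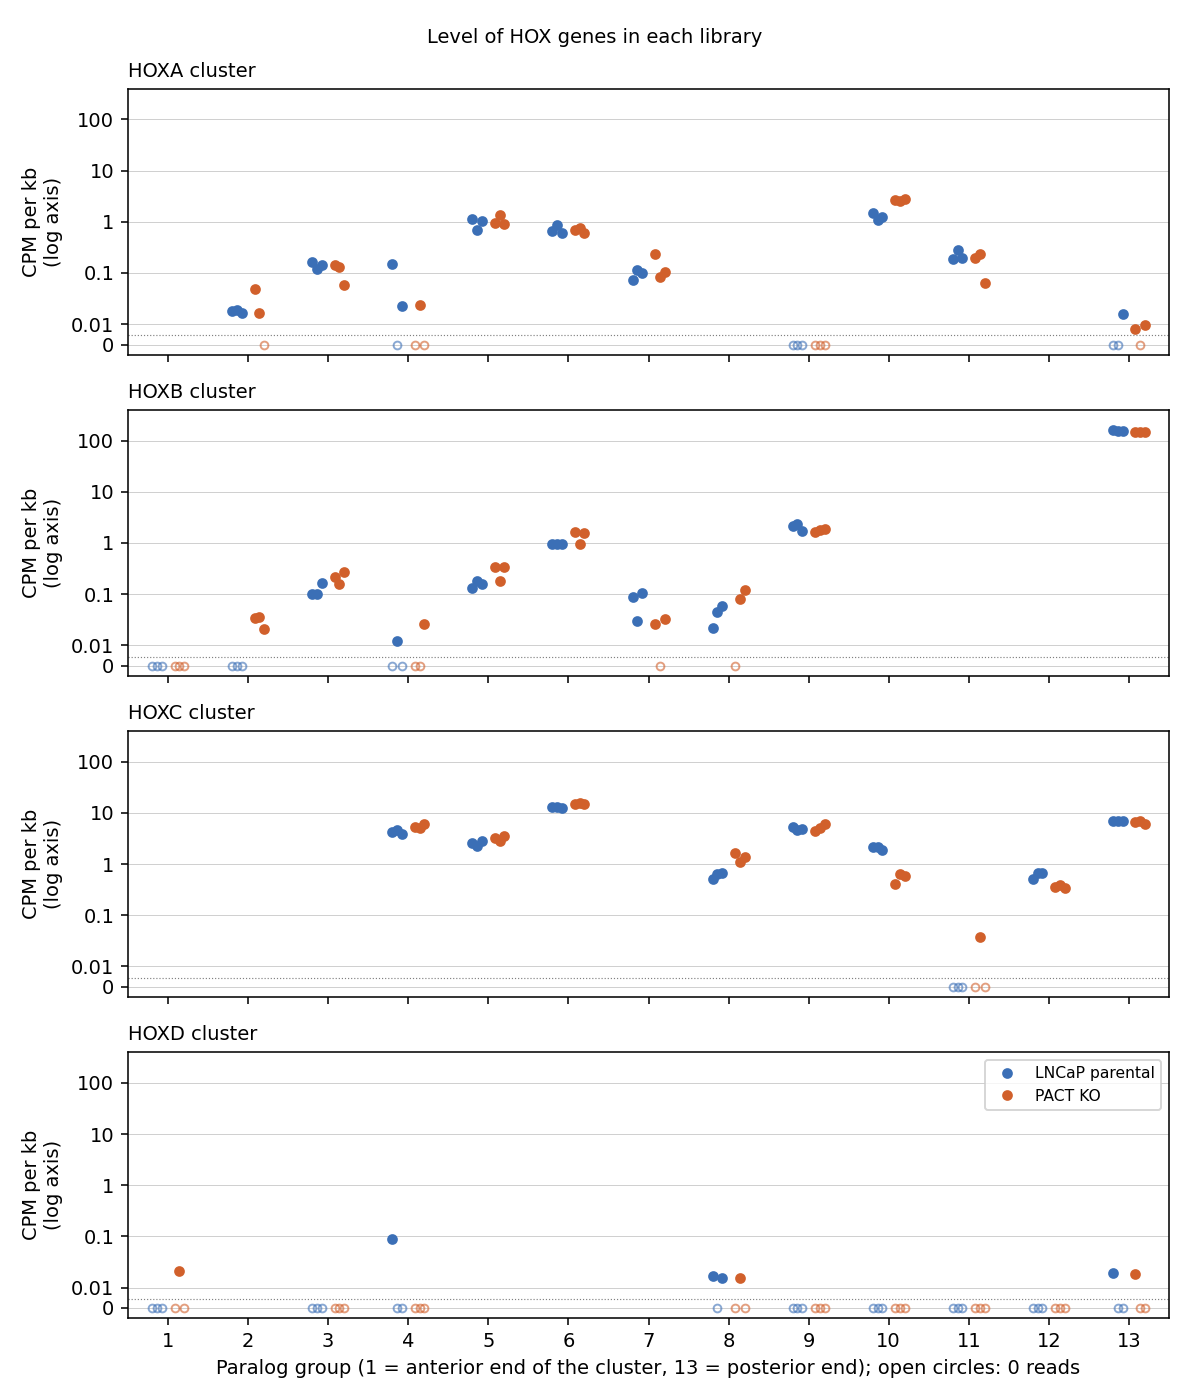
Level of 38 HOX genes in CPM per kb of exon (log axis, with libraries at 0 reads drawn as open circles on the line marked 0) against paralog group, 1 panel per cluster, 1 point per library. *HOXB13* stands near 157 in LNCaP parental libraries, every HOXC member except *HOXC11* is above 0.1 in all 6 libraries, and HOXD is at or near 0 throughout.

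By position, posterior members (groups 9 to 13) summed to 585 ± 12.2 CPM in LNCaP parental cells, central members (4 to 8) to 69.9 ± 1.86 and anterior members (1 to 3) to 3.10 ± 0.285 (SD, n = 3). Along HOXB, counts were high at the posterior end alone: beside the *HOXB13* counts above, the other 9 HOXB genes together had 212, 212 and 218 in LNCaP parental libraries. Along HOXA, expressed members and members without counts were mixed, since *HOXA9* had 0 counts in every library between *HOXA10* and the low *HOXA7*. The readthrough gene *HOXA10-HOXA9* spans *HOXA9* and also had 0 counts in every library. How reads shared by these overlapping genes were assigned is not given, so 0 counts may not mean absence of RNA.

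HOXD was silent at this depth in both groups. No HOXD gene had more than 3 counts in any library, and *HOXD3*, *HOXD9*, *HOXD10*, *HOXD11* and *HOXD12* had 0 in all 6. The whole cluster held 5, 0 and 1 counts in LNCaP parental libraries and 1, 2 and 0 in PACT KO libraries. *PRKRA* lies on the same chromosome, 2.24 Mb from *HOXD1*.

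Of the 39 members, 18 passed the low-count filter and 21 did not. The 21 untested members had at most 17 counts in any library, and 7 of them, the 5 HOXD genes above with *HOXA9* and *HOXB1*, had 0 in all 6. *HOXB5* was the most abundant of the untested, with 6, 8 and 8 counts in LNCaP parental and 17, 9 and 14 in PACT KO. *HOXA7* had 4, 6 and 6 counts against 14, 5 and 5, and *HOXA4* had 6, 0 and 1 against 0, 1 and 0. *HOXA2*, *HOXA13*, *HOXB2*, *HOXB4*, *HOXB7*, *HOXB8*, *HOXC11*, *HOXD1*, *HOXD4*, *HOXD8* and *HOXD13* had between 0 and 5 counts in every library.

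Between the groups, the ranges of the HOX total overlapped while single members moved in both directions. Before scaling, HOX genes took 0.0641% to 0.0662% of counts in LNCaP parental libraries and 0.0638% to 0.0659% in PACT KO libraries. Scaled to CPM, the total was 645 to 672 in LNCaP parental libraries and 632 to 649 in PACT KO libraries. Most of this total was *HOXB13*. All members except *HOXB13* summed to 116 ± 3.26 CPM in LNCaP parental and 132 ± 1.72 CPM in PACT KO (SD, n = 3). With edgeR's quasi-likelihood test at an FDR under 0.01, 8 of the 18 tested members changed (44.4%), beside 34.2% of all 14462 genes tested. Of these, 5 were higher in PACT KO (*HOXA10*, *HOXB6*, *HOXC4*, *HOXC6* and *HOXC8*), beside 15.3% of all genes, and 3 were lower (*HOXB13*, *HOXC10* and *HOXC12*), beside 18.8% of all genes.

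Adding the threshold of 1.5-fold that defines a DEG left 4 members, beside 5.72% of all genes. *HOXA10* and *HOXC8* were higher DEGs (3.07% of all genes) and *HOXC10* and *HOXC12* were lower DEGs (2.65% of all genes). The median log2 fold change of the tested members was 0.12, and that of all genes tested was 0.00. On the CPM scale the groups did not overlap for 8 of the 18, beside 52.2% of all genes. Fewer cells that express a gene and less RNA per cell cannot be told apart in bulk libraries.

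**Figure D2:**
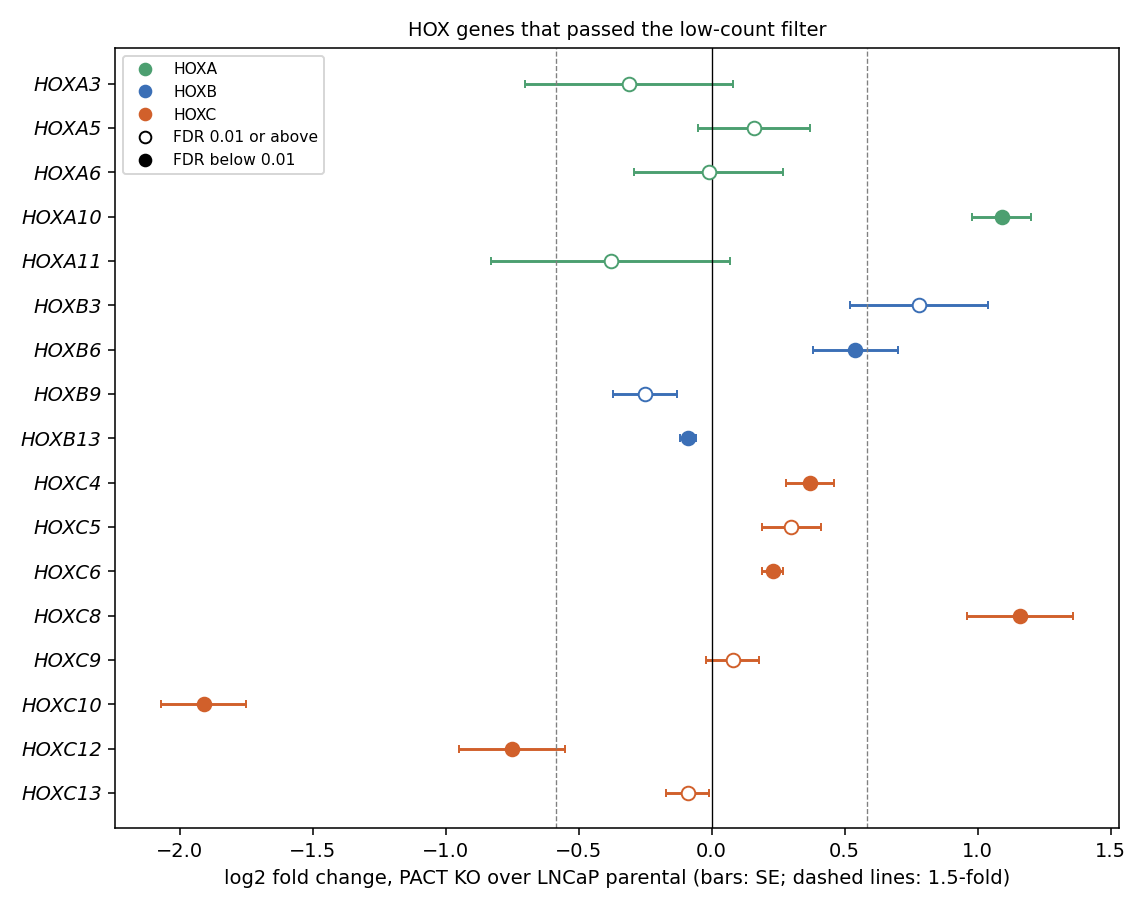
log2 fold change of PACT KO over LNCaP parental for 17 HOX genes that passed the low-count filter, ordered by cluster and paralog group, with SE bars, filled points for an FDR below 0.01 and dashed lines at 1.5-fold. *HOXC10* at -1.91 and *HOXA10* at 1.09 and *HOXC8* at 1.16 lie farthest from 0.

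*HOXC10*, a posterior gene of hindlimb and lumbar spinal cord patterning, was the member that fell most. It had 116, 108 and 107 counts in LNCaP parental libraries and 24, 36 and 28 in PACT KO libraries. Every PACT KO library was far below every LNCaP parental library. Mean levels were 4.81 and 1.28 CPM, 3.76-fold lower in PACT KO (log2 fold change -1.91, SE 0.16, edgeR FDR 1.80e-12). Its neighbour *HOXC9* had 202, 165 and 205 counts against 187, 211 and 206, which overlapped (log2 fold change 0.08, SE 0.10, edgeR FDR 0.545). Per count of *HOXC9* there were 0.522 to 0.655 counts of *HOXC10* in LNCaP parental libraries and 0.128 to 0.171 in PACT KO libraries. The antisense RNA *HOXC-AS3*, whose exons overlap *HOXC10*, had 11, 5 and 7 counts against 2, 0 and 6 and was not tested. Exons of other genes cover 9.82% of the exon bases of *HOXC10*.

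*HOXA10*, the HOXA gene of the same paralog group, rose. It had 124, 86 and 114 counts in LNCaP parental libraries and 247, 235 and 210 in PACT KO libraries, with no overlap. Mean levels were 4.68 and 10.0 CPM, 2.13-fold higher in PACT KO (log2 fold change 1.09, SE 0.11, edgeR FDR 1.03e-10). Before division by exon length, counts of these 2 genes of group 10 were near equal in LNCaP parental cells. There were 0.935 to 1.26 counts of *HOXC10* per count of *HOXA10*, and 0.0972 to 0.153 in PACT KO. Per kb of exon, *HOXC10* and *HOXA10* stood at 2.06 and 1.26 CPM in LNCaP parental and 0.548 and 2.70 in PACT KO. Their LNCaP parental ranges on that scale did not overlap. *HOXD10*, the group's HOXD gene, had 0 counts in all 6 libraries.

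*HOXA10* carried the change of its cluster. It was 42.8% to 47.7% of HOXA counts in LNCaP parental libraries and 59.4% to 66.7% in PACT KO. HOXA summed to 10.3 ± 1.09 and 16.0 ± 0.373 CPM, whereas without *HOXA10* it was 5.58 ± 0.353 and 5.98 ± 0.730 CPM (SD, n = 3). The antisense *HOXA10-AS* had 1 count in 1 PACT KO library and 0 elsewhere, and the readthrough *HOXA10-HOXA9* had 0 in all. Exons of other genes, *HOXA10-AS* among them, cover 26.3% of the exon bases of *HOXA10*. These low counts do not show how shared reads were assigned. The 250 bases before one of the 2 *HOXA10* starts in the RefSeq promoter table are shown because these bases overlap no GENCODE exon. Capitals mark CG dinucleotides.
*HOXA10*, GRCh38.p14 chr7:27174321-27174570 (- strand): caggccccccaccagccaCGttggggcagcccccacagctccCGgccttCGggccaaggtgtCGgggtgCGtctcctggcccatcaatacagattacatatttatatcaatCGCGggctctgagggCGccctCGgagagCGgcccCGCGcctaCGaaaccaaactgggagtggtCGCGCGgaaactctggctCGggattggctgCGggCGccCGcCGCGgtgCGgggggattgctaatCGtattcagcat
It held 24 CG dinucleotides, beside a median of 11.0 over the same window of 35116 promoters. TATAAA was found once, searched on both strands, and 10.7% of all promoters held it. In all 20 of the 39 members had an entry, with 27 starts, and the median over them was 19.0 CG dinucleotides.

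Of the 4 central HOXC genes, *HOXC4*, *HOXC6* and *HOXC8* rose and *HOXC5* did not pass the threshold. *HOXC8*, which patterns thoracic vertebrae, had 22, 26 and 32 counts in LNCaP parental libraries and 77, 50 and 52 in PACT KO libraries. No PACT KO library was as low as any LNCaP parental library. The level went from 1.15 to 2.58 CPM, 2.23-fold higher (log2 fold change 1.16, SE 0.20, edgeR FDR 9.13e-06).

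*HOXC6*, the most abundant HOXC gene, had 1064, 999 and 1090 counts in LNCaP parental libraries and 1333, 1319 and 1061 in PACT KO libraries. The last PACT KO library was also the smallest, and scaled to CPM the groups did not overlap (45.7 and 53.5 CPM, log2 fold change 0.23, SE 0.04, edgeR FDR 1.18e-05). *HOXC4* had 265, 275 and 260 counts against 367, 343 and 329, and its groups did not overlap either (log2 fold change 0.37, SE 0.09, edgeR FDR 6.25e-04). Without LNCaP parental 3 its FDR was 0.0116. *HOXC5* had 125, 103 and 151 counts against 170, 146 and 150, which overlapped, and it did not pass the threshold (log2 fold change 0.30, SE 0.11, edgeR FDR 0.0295), though its FDR was 0.00742 without PACT KO 2.

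Exons of other genes cover 17.8%, 43.4% and 15.7% of the exon bases of *HOXC4*, *HOXC5* and *HOXC6*, which overlap each other, so their counts are not independent of how shared reads were assigned. Together the 3 went from 62.7 ± 1.89 to 75.4 ± 0.946 CPM (SD, n = 3).

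The posterior HOXC genes beyond *HOXC10* did not move as one. *HOXC12* had 38, 48 and 55 counts in LNCaP parental libraries and 29, 32 and 23 in PACT KO libraries, all below the lowest LNCaP parental count. Its level fell 1.68-fold (log2 fold change -0.75, SE 0.20, edgeR FDR 0.00267), with an FDR of 0.0118 to 0.0208 without LNCaP parental 2 or 3 or PACT KO 1 or 3 and 0.0447 with DESeq2. *HOXC13* had 385, 373 and 410 counts against 401, 410 and 294, which overlapped (log2 fold change -0.09, SE 0.08, edgeR FDR 0.381). *HOXC11*, between *HOXC10* and *HOXC12*, had 0 counts in 5 libraries and 3 in the other. *HOXC8* to *HOXC13* summed to 33.2 ± 0.479 CPM in LNCaP parental and 29.8 ± 0.725 CPM in PACT KO.

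**Figure D3:**
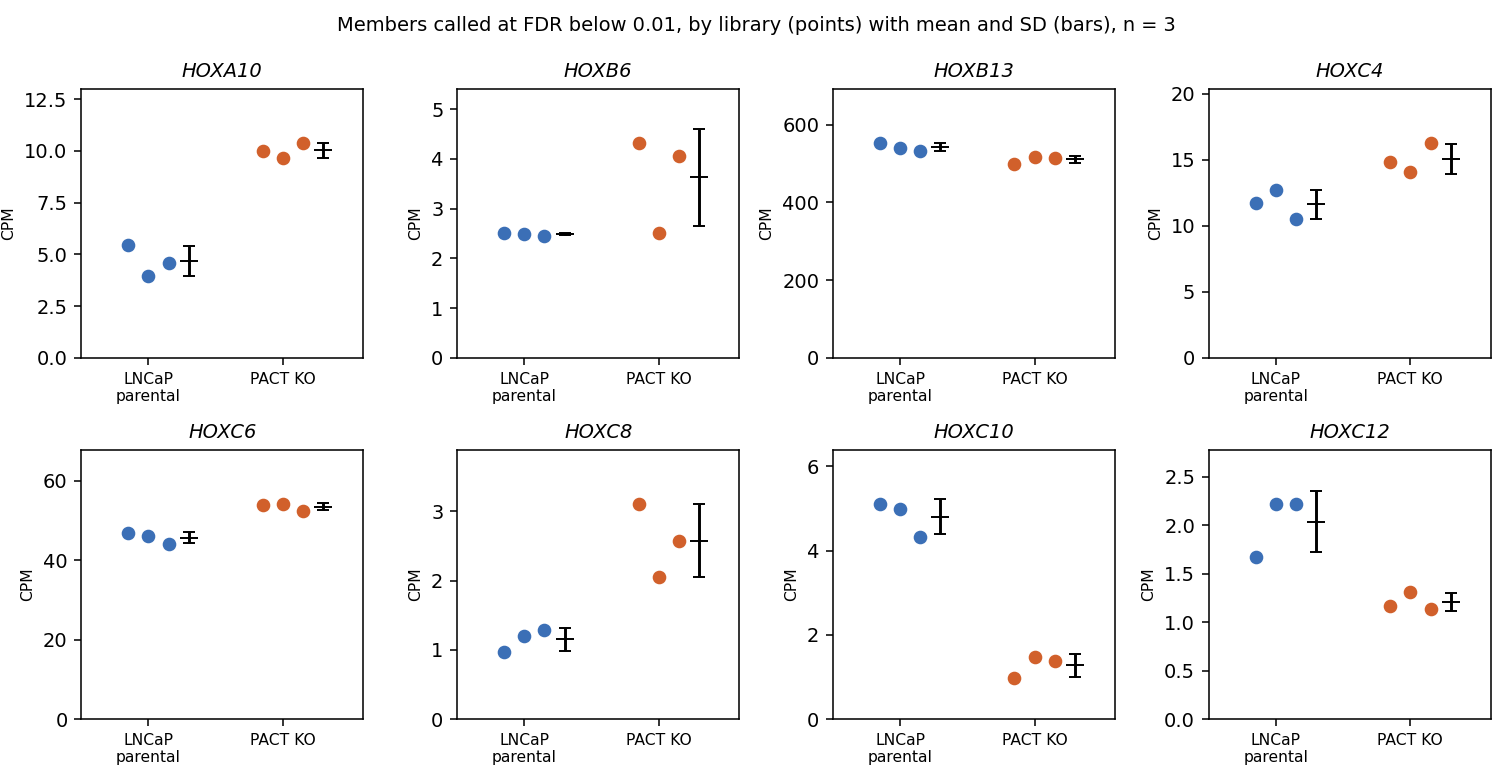
CPM in each library (points, axes from 0) with the mean and SD of 3 libraries for the 8 HOX genes with an FDR below 0.01. *HOXA10*, *HOXC8* and *HOXC10* show the widest gaps, *HOXB13* moves from 543 to 511 CPM, and *HOXB6* has a PACT KO library at the level of LNCaP parental.

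*HOXB13* changed by a small amount at a high level. Its counts of 12366, 12592 and 10426 in PACT KO libraries overlapped those of LNCaP parental libraries, and scaled to CPM they lay just below them. The means were 543 and 511 CPM (log2 fold change -0.09, SE 0.03, edgeR FDR 0.00652), a 1.06-fold decrease. Its FDR was 0.0130 to 0.0544 when LNCaP parental 1, 2 or 3 or PACT KO 1 or 3 was left out, 0.0151 without the low-count filter, and 0.0466 and 0.0561 with upper quartile scaling and library totals. Its share of HOX counts was 79.1% to 79.9% in PACT KO libraries.

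The other HOXB genes lay at low counts. *HOXB6* had 57, 54 and 61 counts in LNCaP parental libraries and 107, 61 and 82 in PACT KO libraries, and the groups overlapped on the CPM scale. Its log2 fold change was 0.54 (SE 0.16, edgeR FDR 0.00658), and without LNCaP parental 1, 2 or 3 or PACT KO 1 or 3 its FDR was 0.0209 to 0.113. With DESeq2 and limma-voom the adjusted p of *HOXB6* was 0.0684 and 0.0284. *HOXB3* had 17, 16 and 31 counts against 40, 29 and 41 and did not pass (log2 fold change 0.78, SE 0.26, edgeR FDR 0.0120), but its FDR was below 0.01 in 8 of 16 alternatives, among them 0.00525 with edgeR's exact test, 0.00343 without LNCaP parental 3 and 0.00232 without PACT KO 2, in a range of 0.00232 to 0.0890. *HOXB3* and *HOXB6* share exon bases with each other. *HOXB9*, a gene of thoracic and mammary patterning, had 128, 130 and 111 counts against 105, 111 and 96, which overlapped (log2 fold change -0.25, SE 0.12, edgeR FDR 0.0997).

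The tested HOXA genes *HOXA3*, *HOXA5*, *HOXA6* and *HOXA11* did not pass the threshold. *HOXA5* had 44, 26 and 43 counts against 40, 56 and 31 (log2 fold change 0.16, SE 0.21). *HOXA6* had 19, 24 and 19 against 22, 24 and 16 (log2 fold change -0.01, SE 0.28). Both overlapped between the groups. *HOXA3* and *HOXA11* had log2 fold changes of -0.31 (SE 0.39) and -0.38 (SE 0.45), with at most 16 counts in any library.

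By position, anterior members had no call among 3 tested, central members 4 higher and 0 lower among 7, and posterior members 1 higher and 3 lower among 8, beside 15.3% higher and 18.8% lower of all genes. Central members summed to 69.9 ± 1.86 CPM in LNCaP parental and 85.4 ± 2.14 CPM in PACT KO (SD, n = 3). Of these sums *HOXC4*, *HOXC5* and *HOXC6*, which share exon bases with each other, held 62.7 ± 1.89 and 75.4 ± 0.946 CPM. Among the 4 central calls, *HOXB6* had an FDR of 0.01 or above in 7 of 16 alternatives and *HOXC4* in 1. Posterior members summed to 585 ± 12.2 and 553 ± 10.7 CPM, of which *HOXB13* alone was 543 ± 10.6 and 511 ± 9.43 CPM. The posterior sum therefore mostly follows that 1 gene. The number of expressed members was 14 in LNCaP parental and 15 in PACT KO, where *HOXB3* was added at 1.61 CPM. In the order of levels per kb, *HOXA10* moved from place 9 to place 7, *HOXC8* from 13 to 10 and *HOXC10* from 8 to 13.

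Genes that lie within or beside the clusters were read from the RefSeq gene table, which lists 37 non-member genes between the outermost members and 40 protein-coding genes in the flanks. Of these, 25 and 39 were in the count table, and 7 and 35 were tested. Inside the clusters 1 gene was lower and 3 were higher at an FDR under 0.01, and in the flanks 9 were lower and 6 higher. The 19 of 42 (45.2%) compare with 34.2% of all genes.

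A long noncoding RNA and a homeobox gene at the 2 ends of HOXA were the DEGs among these neighbours. *HOTAIRM1*, transcribed from the anterior end of the cluster, had 48, 67 and 49 counts in LNCaP parental libraries and 116, 86 and 83 in PACT KO libraries, with no overlap (log2 fold change 0.79, SE 0.16, edgeR FDR 6.83e-05). *EVX1*, the homeobox gene beyond *HOXA13*, had 20, 15 and 16 counts against 6, 3 and 3, also with no overlap (log2 fold change -2.06, SE 0.48, edgeR FDR 4.87e-04).

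The other called genes inside the clusters, named after their values were seen, lay near the posterior ends of HOXB and HOXC. *PRAC1*, a small prostate-expressed gene between *HOXB9* and *HOXB13*, had 3418, 3203 and 3529 counts against 4263, 4466 and 3433 and was higher in PACT KO (log2 fold change 0.26, SE 0.03, edgeR FDR 1.44e-08). Its neighbour *PRAC2* was higher too (log2 fold change 0.31, SE 0.06, edgeR FDR 9.10e-05). *HOXB13* and *PRAC1* moved apart, with 3.66 to 3.74 counts of *HOXB13* per count of *PRAC1* in LNCaP parental libraries and 2.82 to 3.04 in PACT KO libraries. *HOXC13-AS*, antisense to *HOXC13*, had 106, 87 and 111 counts against 68, 75 and 70 (log2 fold change -0.51, SE 0.13, edgeR FDR 0.00169). *HOTAIR*, the antisense RNA between *HOXC11* and *HOXC12*, had at most 4 counts in any library. The microRNA genes *MIR10A*, *MIR10B*, *MIR196A1*, *MIR196A2* and *MIR196B* had 0 in all, but polyA libraries do not measure mature microRNAs.

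Among gene groups known to act with or on HOX genes, the TALE, Polycomb, Trithorax and COMPASS, and CTCF and cohesin lists had small shifts. Of the 9 TALE cofactors, 8 were tested, 3 were higher and none lower at an FDR under 0.01, 37.5% beside 34.2% of all genes, with a median log2 fold change of 0.17. Among the 3 were *PKNOX2* (log2 fold change 0.43, SE 0.06) and *PBX2* (0.16, SE 0.04). *MEIS2* had 0 counts in every library.

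Among 23 Polycomb genes, which keep HOX chromatin silent, 9 were higher and 2 lower, 47.8% beside 34.2% of all genes, with a median log2 fold change of 0.09. The smallest p-values were those of *PCGF2* (log2 fold change 0.29, SE 0.03), *EZH1* (0.28, SE 0.04) and *PHC1* (0.37, SE 0.07). The 2 lower genes, named after their values were seen, were *EZH2* (-0.22, SE 0.04) and *CBX2* (-0.12, SE 0.03). With DESeq2 5 Polycomb genes were higher and 1 lower, and 1 was lower with upper quartile scaling, with library totals and without LNCaP parental 2 or 3 or PACT KO 1 or 2. Among 12 Trithorax and COMPASS genes, which keep it active, 2 were higher and 4 lower, 50.0% beside the same 34.2%, with a median of -0.10. The H3K27 demethylases *KDM6B* (log2 fold change 0.24, SE 0.03) and *KDM6A* (0.22, SE 0.03) were the higher ones, and *HCFC1* (-0.21, SE 0.03) was lower, as were *MEN1* (-0.20, SE 0.04), *WDR5* (-0.24, SE 0.04) and *DOT1L* (-0.24, SE 0.04), these 3 named after their values were seen. Of 8 CTCF and cohesin genes, 3 were lower and 1 higher (50.0%), with *SMC1A* at -0.31 (SE 0.03), *RAD21* at -0.22 (SE 0.03) and *SMC3* at -0.14 (SE 0.04). *STAG2*, named after its values were seen, was the higher one at 0.10 (SE 0.03), and no gene of the list was higher without LNCaP parental 1 or 2 or PACT KO 2. None of these 3 lists held a DEG.

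The retinoid list held 2 DEGs, both higher, beside 3.07% of all genes. *RDH10*, an enzyme that oxidises retinol on the way to retinoic acid, had 838, 759 and 845 counts in LNCaP parental libraries and 1829, 1944 and 1512 in PACT KO libraries (log2 fold change 1.11, SE 0.04, edgeR FDR 1.17e-22). *CYP26B1*, which degrades retinoic acid, had 8, 3 and 14 counts against 33, 29 and 25 (log2 fold change 1.78, SE 0.35, edgeR FDR 4.94e-05). Neither pair of groups overlapped. Of the 18 genes 10 were tested, with 4 higher and 1 lower (50.0%, beside 34.2% of all genes) and a median log2 fold change of 0.08. The others called, named after their values were seen, were the receptors *RARB* (0.54, SE 0.12), *RARG* (0.31, SE 0.06) and *RXRA* (-0.09, SE 0.03), and *RXRA* lost its call with DESeq2, upper quartile scaling, library totals and the replicate block, and without LNCaP parental 1, 2 or 3 or PACT KO 1 or 2.

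Of 13 other homeobox genes of the same ANTP class, 3 were tested and 2 were lower DEGs, beside 2.65% of all genes. Beside *EVX1*, *MNX1*, a motor neuron and pancreas gene, had 78, 80 and 97 counts in LNCaP parental libraries and 40, 45 and 33 in PACT KO libraries, which did not overlap (log2 fold change -1.11, SE 0.15, edgeR FDR 1.52e-07). The third, *GBX2*, had 24, 12 and 25 counts against 35, 33 and 29, with no overlap, and did not pass the threshold (log2 fold change 0.66, SE 0.26, edgeR FDR 0.0324). *PDX1*, named after its values were seen, had 10, 9 and 17 counts against 0 in all 3 PACT KO libraries and did not pass the filter.

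**Figure D4:**
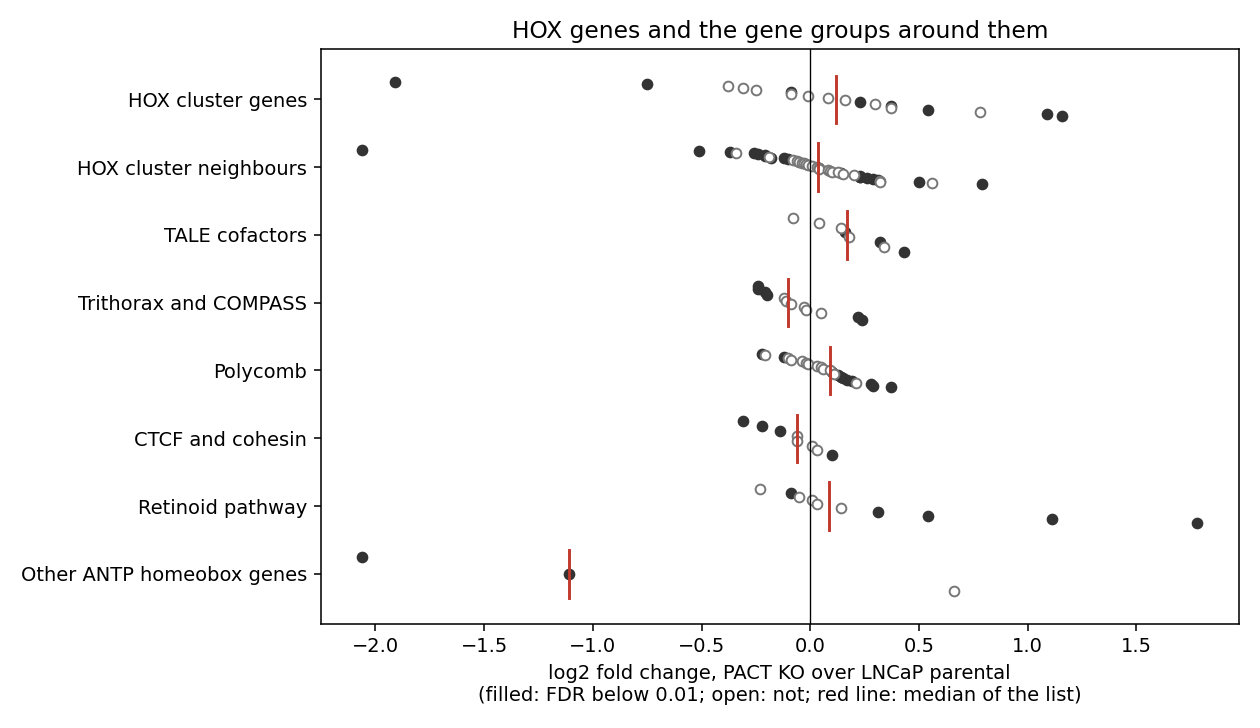
log2 fold change of PACT KO over LNCaP parental for each tested gene of the HOX clusters and of 7 related gene groups, with filled points for an FDR below 0.01 and a red line at each list's median. The HOX genes spread from -1.91 to 1.16 around a median of 0.12, the TALE, Trithorax and COMPASS, Polycomb, and CTCF and cohesin lists stay within 0.43 of 0 on either side, and the ANTP list holds 3 genes.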

How the data were processed

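RNA-seq counts of 6 libraries were analysed, 3 of LNCaP parental and 3 of PACT KO cells. The authors deposited whole-number counts of reads per NCBI Gene number, not normalized. The submitters' processing notes name bcl2fastq 2.20.0.422, STAR 2.5.3a, StringTie 1.3.3, featureCounts 1.5.3 and hg38. The annotation and use of strand are not given in the sources used here, so reads of overlapping and antisense genes may not be separated. A row without gene number (0.0688% to 0.0708% of counts) was left out. Symbols came from RefSeq GRCh38.p14 (27540 of 29806 numbers).

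Genes were kept by filterByExpr, scaled by TMM and compared by glmQLFTest, 2-sided with Benjamini-Hochberg adjustment, in edgeR 4.0.16 (R 4.3.3), after tests on simulated data. Changed means FDR < 0.01, and DEG also 1.5-fold. The SE is |log2 fold change| / √F. CPM use TMM factors, and CPM per kb the exon union of GENCODE release 29. The floor is 3 counts and covers counting error only. Alternatives used DESeq2 1.42.0, limma 3.58.1 (voom), other edgeR tests, scalings and filters, and left out each library. The main fit did not pair samples by replicate number. Members and lists were chosen with earlier results of these data known. Tested members were named, except items not reported here, members over 5 CPM or called a DEG by counts in each library, and from each other list the DEGs or else the 3 smallest p.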

Additional observations from a re-analysis of the deposited data

How the results depend on the processing

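Each tested HOX gene was refitted under 16 alternatives. *HOXA10* (log2 fold change 0.99 to 1.22), *HOXC10* (-2.04 to -1.73), *HOXC8* (0.99 or above) and *HOXC6* (0.21 to 0.26) kept their direction and an FDR below 0.01 in all 16. Of the 288 refits of members, 249 kept direction and side of the threshold, 21 lost the call, 9 gained one and 9 changed sign. The FDR ranged from 0.00249 to 0.0561 for *HOXB13* (below 0.01 in 8), from 4.59e-05 to 0.113 for *HOXB6*, from 0.00152 to 0.0447 for *HOXC12*, from 1.30e-04 to 0.0116 for *HOXC4* and from 0.00232 to 0.0890 for *HOXB3*. Sign changes were all in members that did not pass. *HOXA5* was at -0.00 without LNCaP parental 2 and -0.05 without PACT KO 2 (-0.05 to 0.30 over leave-one-out fits), and *HOXC9* at -0.02 without PACT KO 3 (-0.02 to 0.19). *HOXA6* was at 0.00 with limma-voom, 0.02 with upper quartile scaling or library totals, and 0.16, 0.00 and 0.07 without LNCaP parental 2, PACT KO 1 and PACT KO 3 (-0.11 to 0.16).

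The lower DEGs among HOX genes numbered 1 with DESeq2, at 2-fold and with glmTreat, and the higher DEGs numbered 1 with glmTreat. Leaving out 1 library gave 1 to 3 lower and 4 to 7 higher HOX genes, 1 to 2 lower DEGs and 2 to 4 higher DEGs. The 7 higher genes and the 4 higher DEGs were found without PACT KO 2. With DESeq2 or limma-voom, 4 HOX genes were higher. Polycomb had 1 lower gene with DESeq2, upper quartile scaling or library totals and 1 to 2 in leave-one-out fits, and 5 higher with DESeq2. The retinoid list had 0 lower with DESeq2, upper quartile scaling, library totals and the replicate block, and 0 to 1 in leave-one-out fits. CTCF and cohesin had 0 to 1 higher in leave-one-out fits, and the ANTP list 1 higher at an FDR under 0.05. At a 5 CPM minimum, 7 members were expressed in each group, and without division by length *HOXB13* held 82.4% and 79.5% of the HOX level. The causes were not tested.

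Deviations from group means had correlations of -0.09, 0.00 and -0.09 between same-numbered libraries, and of -0.08 to 0.15 between the others. This gave no sign that the numbers pair samples, but 3 libraries per group cannot exclude it. With the replicate block 3 HOX genes were lower and 6 higher. Low counts limit most members: 3 counts are 0.121 to 0.148 CPM, and for members at or below this no change between the groups is stated.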
